A study of Oryza sativa Japonica Group with 12 samples.

Results

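Named MADS-box genes of rice were described at tillering in 3 *japonica* varieties and their F1 hybrids. A gene was a member if its symbol or a synonym in the gene annotation was MADS or OsMADS followed by a number only. This gave 31 genes of the 23837 genes with a probe set of their own on the array. MADS-box genes without such a name in the annotation were not included. The Bsister and AGL17 subfamilies, for example, have further genes in rice that did not match. Counts of a subfamily are therefore counts of its matched genes. Each of the 31 had a single probe set, so no choice between probe sets was needed. Names with several numbers were given by 1 of them, so that *OsMADS7* is also listed as *OsMADS45* and *OsMADS8* as *OsMADS24*.

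Total RNA of whole plants was hybridized to 12 Affymetrix GeneChip arrays, which report each gene as the brightness of a probe set. The plants were F1 hybrids named ‘CH7/8’, ‘CH7/9’ and ‘CH8/9’, and their parents were the varieties ‘CH9’, ‘CH8’ and ‘CH7’, with 2 arrays for each of the 6 lines. The series addresses hybrid weakness, the poor growth of F1 plants from healthy parents. Each hybrid carries 1 genome of each parent named in it, each parent takes part in 2 of the hybrids, and no line received a treatment or a transgene. All plants grew in a greenhouse, and whole plants were cut up and frozen, so every sample mixes leaf, stem, root and meristem. The labels call the arrays biological replicates. The methods give 3 plants per line, and 2 arrays per line were used here.

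MADS-box proteins are transcription factors that bind DNA as dimers and larger complexes through a conserved domain. In rice, as in other flowering plants, members of the AP1/FUL, SOC1 and SVP subfamilies act in the vegetative shoot and at the switch to flowering, whereas the SEP, AGL6, B, C/D and Bsister subfamilies specify spikelet meristems, floral organs, ovules and seed tissue. Members of the AGL17 and AGL12 subfamilies are known for roles in tillering, roots and stress responses.

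Intensities ran from 1.58 to 4035 on the linear scale of the deposited table, and are given as log2 intensity, where a step of 1 is a 2-fold change. The median of an array was 10.9 to 12.4 on the linear scale. Replicate arrays correlated at r = 0.966 to 0.984 over all probe sets, a correlation across genes and not across samples. For 5 of the 12 arrays, the closest array belonged to another line. These were ‘CH7/8’ replicates 1 and 2, ‘CH7/9’ replicate 1, ‘CH8/9’ replicate 1 and ‘CH8’ replicate 1. No 2 arrays held the same values. Of the 4 green leaf genes measured, the Rubisco activase gene *RCA* was at log2 6.84 to 9.26, *RBCS* at 6.03 to 8.12 and *CAB2R* at 5.97 to 7.90. *CAB1R*, at 1.84 to 3.24, lay below the array median on all 12 arrays. Of the 6 root genes measured, the silicon transporter gene *LSI1* was at 4.26 to 6.22, *LSI2* at 4.27 to 6.81 and *NRAMP5* at 3.57 to 6.09. *NRT2.1*, at 1.48 to 1.76, lay below the median on all 12, and *NAS1* and *NAS2* passed it on ‘CH7/9’ replicate 2 only. The 4 endosperm genes measured and 5 of the 9 flower, pollen and anther genes lay below the median of their array on all 12 arrays.

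A member was called well expressed if it lay above the 75th percentile of its own array on all 12 arrays, and near background if it lay below the median of its own array on all 12. No detection call was used, and probe sets differ in how strongly they bind, so these classes place each gene within its array and do not rank transcripts. Of the 31 members, 7 were well expressed, which is 22.6% of them, against 27.8% of all genes and 18.1% of all probe sets. A further 16, or 51.6%, were near background, against 24.3% of all genes and 39.3% of all probe sets. The remaining 8, or 25.8%, lay between, against 47.8% and 42.6%. The share of all genes takes the brightest probe set of each gene, which raises it for the well expressed class. The members' share of that class lay between the 2 references. All 3 SVP members, both SOC1 members and 2 of the 4 AP1/FUL members were well expressed. All 4 C/D class members and both Bsister members were near background. So were 3 of 5 SEP, 2 of 3 B class, 2 of 4 AGL17, 1 of 2 AGL6 and 1 of 2 AGL12 members. *OsMADS47* came closest to leaving the well expressed class, with its lowest array 0.81 log2 above the 75th percentile. *OsMADS20* was the near-background gene closest to its array median, at 0.25 log2 below it on ‘CH8/9’ replicate 2. Just outside that class, *OsMADS17* passed the median on 1 array, by 0.15 log2, and *OsMADS27* passed it on 2 arrays, by up to 0.27 log2.

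**Figure D1:**
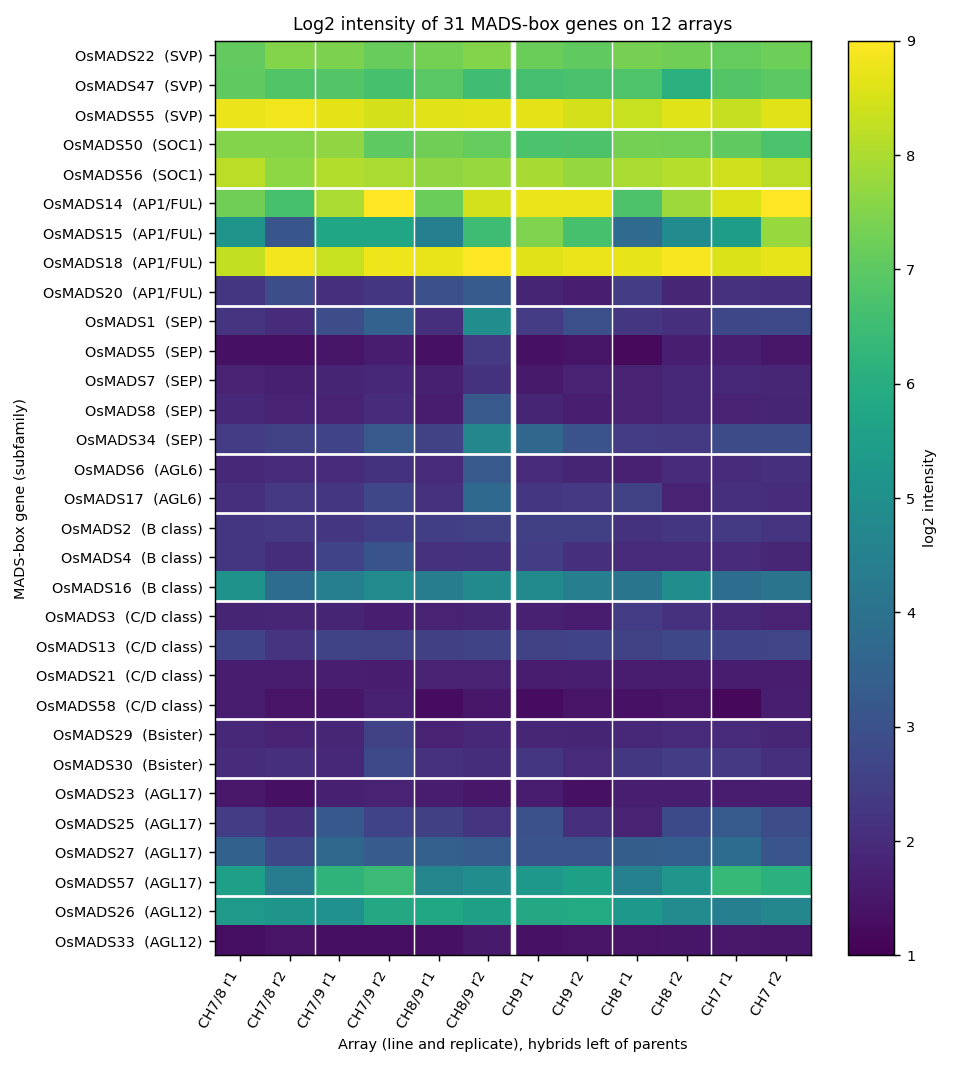
Log2 intensity of the 31 MADS-box genes (rows, grouped by subfamily) on the 12 arrays (columns, hybrids left of parents); colour runs from 1 to 9. The SVP and SOC1 rows are bright on every array, the C/D and Bsister rows are dark on every array, and the SEP and AGL6 rows brighten on ‘CH8/9’ replicate 2.

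The SVP genes are repressors of brassinosteroid responses in rice, and they varied little among the lines. *OsMADS55* was at 8.78 and 8.82 in ‘CH7/8’, 8.67 and 8.47 in ‘CH7/9’, 8.64 and 8.68 in ‘CH8/9’, 8.66 and 8.47 in ‘CH9’, 8.33 and 8.60 in ‘CH8’ and 8.31 and 8.64 in ‘CH7’. *OsMADS22* was at 7.08 and 7.53 in ‘CH7/8’, 7.42 and 7.14 in ‘CH7/9’, 7.33 and 7.51 in ‘CH8/9’, 7.20 and 7.04 in ‘CH9’, 7.36 and 7.25 in ‘CH8’ and 7.11 and 7.23 in ‘CH7’. *OsMADS47* was at 7.05 and 6.83 in ‘CH7/8’, 6.85 and 6.66 in ‘CH7/9’, 6.95 and 6.56 in ‘CH8/9’, 6.64 and 6.70 in ‘CH9’, 6.79 and 6.09 in ‘CH8’ and 6.86 and 6.97 in ‘CH7’. For each of the 3 genes, the values of hybrids and parents overlapped. The highest and lowest line means were 0.33 log2 apart for *OsMADS55*, 0.30 for *OsMADS22* and 0.50 for *OsMADS47*. In all hybrids against all parents, the differences were 0.17 (95% interval −0.05 to 0.39), 0.14 (−0.11 to 0.38) and 0.14 (−0.16 to 0.45), in the same order of genes, each with an adjusted p of 0.94 (limma).

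Both SOC1-like genes act on flowering in long days in rice, *OsMADS50* as a promoter and *OsMADS56* as a repressor. *OsMADS50* was at 7.51 and 7.53 in ‘CH7/8’, 7.67 and 7.02 in ‘CH7/9’, 7.27 and 7.10 in ‘CH8/9’, 6.74 and 6.78 in ‘CH9’, 7.33 and 7.29 in ‘CH8’ and 7.06 and 6.72 in ‘CH7’. The ‘CH7/8’ arrays lay above all 6 parent arrays, whereas each of the other hybrids had at least 1 array below both ‘CH8’ arrays. Over all hybrids *OsMADS50* was 0.36 ± 0.12 log2 (SE) above the parents, which is 1.29-fold (unadjusted p = 0.0166, adjusted p = 0.94, limma). It was 0.42 ± 0.19 above the mid-parent, the mean of the hybrid's own parents, in ‘CH7/8’ (adjusted p = 0.999, limma) and 0.52 ± 0.19 above it in ‘CH7/9’ (adjusted p = 0.493). *OsMADS56* was at 8.16 and 7.64 in ‘CH7/8’, 8.07 and 7.97 in ‘CH7/9’, 7.68 and 7.78 in ‘CH8/9’, 7.94 and 7.74 in ‘CH9’, 7.99 and 8.11 in ‘CH8’ and 8.43 and 8.17 in ‘CH7’. Its ‘CH7’ arrays were the highest of the 12, and hybrids and parents overlapped. The ‘CH9’ mean of *OsMADS56* was 0.46 ± 0.19 log2 below that of ‘CH7’, which did not pass the test (adjusted p = 0.37, limma).

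**Figure D2:**
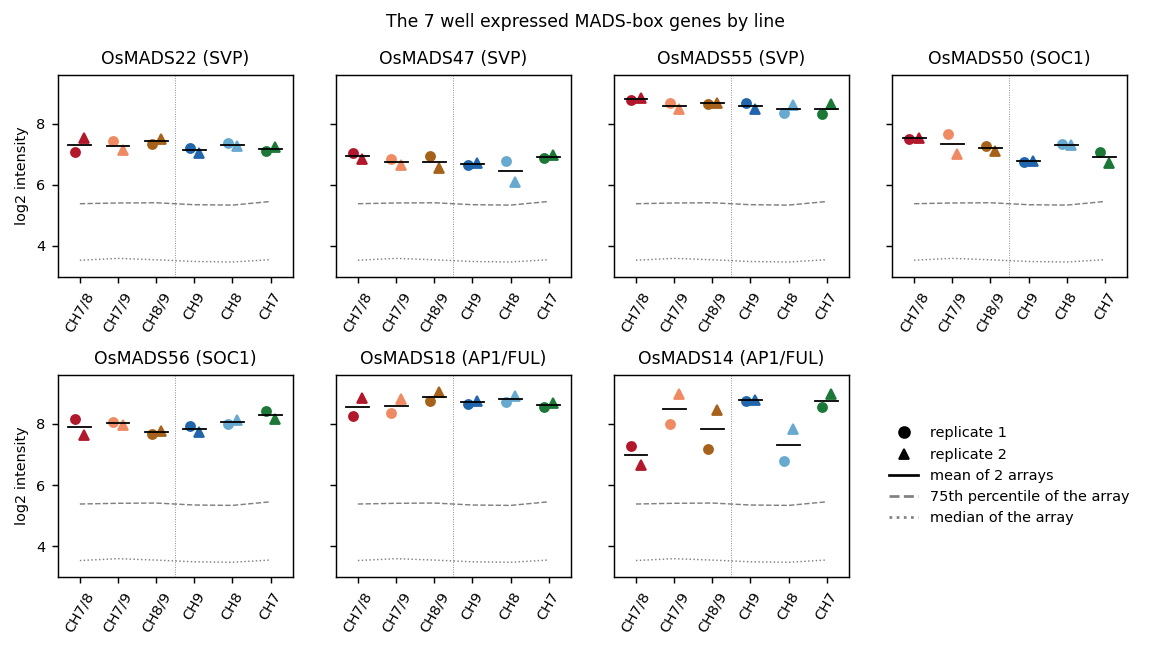
Log2 intensity (y axis) of the 7 well expressed MADS-box genes by line (x axis, hybrids left of parents); points are single arrays, bars the mean of 2 arrays, and grey lines the median and 75th percentile of the arrays. The line means of 6 genes span 0.30 to 0.76 log2, while those of *OsMADS14* span 1.80.

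The AP1/FUL genes *OsMADS14*, *OsMADS15* and *OsMADS18* are activated downstream of florigen in rice and act in inflorescence meristem identity, and they did not vary alike. *OsMADS18* was steady, at 8.26 and 8.85 in ‘CH7/8’, 8.34 and 8.81 in ‘CH7/9’, 8.74 and 9.04 in ‘CH8/9’, 8.64 and 8.76 in ‘CH9’, 8.70 and 8.91 in ‘CH8’ and 8.55 and 8.69 in ‘CH7’. Its line means spanned 0.33 log2, less than the gap between the ‘CH7/8’ replicates.

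*OsMADS14* was at 7.27 and 6.67 in ‘CH7/8’, 7.99 and 8.99 in ‘CH7/9’, 7.19 and 8.46 in ‘CH8/9’, 8.76 and 8.78 in ‘CH9’, 6.77 and 7.83 in ‘CH8’ and 8.54 and 8.98 in ‘CH7’. Both ‘CH7/8’ arrays and both ‘CH8’ arrays lay below all ‘CH9’ and ‘CH7’ arrays. ‘CH8’ was 1.46 ± 0.50 log2 below ‘CH7’, a 2.74-fold difference (unadjusted p = 0.018, adjusted p = 0.142, limma), and ‘CH9’ was 1.46 ± 0.50 above ‘CH8’ (adjusted p = 0.382). Leaving out single arrays moved both differences between 0.93 and 1.99 log2 in size. Against its own parents, ‘CH7/8’ was 1.79 ± 0.50 log2 below ‘CH7’, or 3.47-fold (adjusted p = 0.233, limma), and 0.34 ± 0.50 below ‘CH8’ (adjusted p = 0.99). It lay 1.07 ± 0.44 below the mid-parent (adjusted p = 0.999, limma), and leaving out single arrays gave 0.77 to 1.37 log2 below it. None of these differences passed the test.

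*OsMADS15* had the widest spread of line means among the members, with wide gaps between replicates as well. It was at 5.14 and 3.13 in ‘CH7/8’, 5.74 and 5.72 in ‘CH7/9’, 4.45 and 6.52 in ‘CH8/9’, 7.46 and 6.67 in ‘CH9’, 3.79 and 4.86 in ‘CH8’ and 5.45 and 7.76 in ‘CH7’. The ‘CH9’ arrays lay above every hybrid array, and the ‘CH8’ arrays below both ‘CH7’ arrays. The line means spanned 2.93 log2, and the replicates of ‘CH7/8’, ‘CH8/9’ and ‘CH7’ were 2.02 to 2.31 log2 apart. ‘CH9’ was 2.74 ± 0.94 log2 above ‘CH8’ (adjusted p = 0.377, limma), and ‘CH8’ was 2.28 ± 0.94 below ‘CH7’ (adjusted p = 0.21). ‘CH7/8’ was 2.47 ± 0.94 log2 below ‘CH7’ (adjusted p = 0.351, limma) and 0.19 ± 0.94 below ‘CH8’ (adjusted p = 0.998). Relative to ‘CH7’, leaving out single arrays gave −3.62 to −1.32 log2 for ‘CH7/8’ and −3.43 to −1.13 for ‘CH8’, with both extremes reached by leaving out a ‘CH7’ array.

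The samples were whole plants, so fewer cells of a type and less RNA per cell cannot be told apart for any of these genes. Genes that mark the shoot meristem, where *OsMADS14* and *OsMADS15* act, are given beside them. The knotted-type homeobox gene *OSH15* was at 5.29 and 4.13 in ‘CH7/8’, 5.32 and 5.90 in ‘CH7/9’, 4.63 and 4.43 in ‘CH8/9’, 6.01 and 5.42 in ‘CH9’, 4.14 and 4.13 in ‘CH8’ and 5.09 and 6.59 in ‘CH7’. Its replicates differed in the same direction as those of *OsMADS15* in ‘CH7/8’, ‘CH9’ and ‘CH7’. In ‘CH8/9’ they differed in the opposite direction, in ‘CH8’ *OSH15* was level where *OsMADS15* was not, and in ‘CH7/9’ the reverse held. *OSH15* was 1.71 ± 0.50 log2 lower in ‘CH8’ than in ‘CH7’ (adjusted p = 0.0965, limma) and 1.58 ± 0.50 higher in ‘CH9’ than in ‘CH8’ (adjusted p = 0.324). Of the 6 meristem genes measured out of 8 listed, 0 were called by limma in any comparison. At an unadjusted p under 0.05 there were 5 for ‘CH9’ against ‘CH8’, all higher in ‘CH9’, against 8.83% of all probe sets. There was 1 for ‘CH8’ against ‘CH7’, against 20.6% of all probe sets, and 0 for ‘CH7/8’ against ‘CH7’, against 12%. Their summed linear intensity was 124 and 52 in ‘CH7/8’, 96 and 109 in ‘CH7/9’, 94 and 93 in ‘CH8/9’, 149 and 97 in ‘CH9’, 54 and 46 in ‘CH8’ and 88 and 148 in ‘CH7’. On every array, *OSH15* or *FON1* was the brightest of the 6 and weighed most in the sum. For ‘CH7/8’ against ‘CH7’, *OSH15* differed by −1.13 log2 and the other 5 by −0.19 to 0.16. Within the list, *OSH6* and *OSH43* were near background and the others lay between the classes. The part of the meristem genes in the *OsMADS14* and *OsMADS15* values was not tested.

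**Figure D3:**
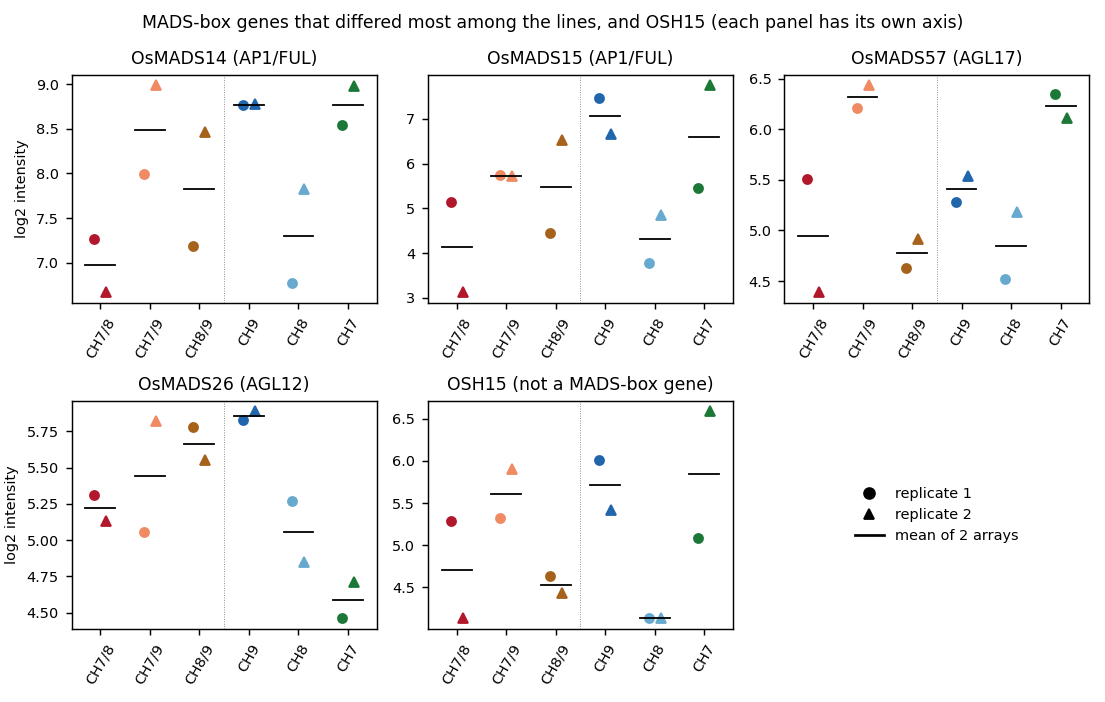
Log2 intensity (y axis, a separate scale in each panel) of *OsMADS14*, *OsMADS15*, *OsMADS57*, *OsMADS26* and the meristem gene *OSH15* by line (x axis, hybrids left of parents); points are single arrays and bars the mean of 2 arrays. ‘CH8’ lies below ‘CH7’ on both arrays for *OsMADS14*, *OsMADS15*, *OsMADS57* and *OSH15*, and above it for *OsMADS26*.

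The fourth AP1/FUL gene, *OsMADS20*, was near background but was the member with the lowest p in hybrids against parents. It was at 2.25 and 2.88 in ‘CH7/8’, 2.08 and 2.25 in ‘CH7/9’, 2.95 and 3.32 in ‘CH8/9’, 1.82 and 1.68 in ‘CH9’, 2.44 and 1.87 in ‘CH8’ and 2.15 and 2.1 in ‘CH7’. Both ‘CH8/9’ arrays lay above all parent arrays, and the other hybrids overlapped with the parents. The ‘CH8/9’ mean was 1.18 ± 0.22 log2 above the mid-parent, or 2.27-fold (unadjusted p = 0.000481, adjusted p = 0.322, limma), 1.38 ± 0.25 above ‘CH9’ (adjusted p = 0.213) and 0.98 ± 0.25 above ‘CH8’ (adjusted p = 0.3). The difference from the mid-parent was 0.99 to 1.37 when single arrays were left out and 0.32 when a pseudocount of 16 was added before log2. The difference from the mid-parent was 0.95 ± 0.29 log2 lower in ‘CH7/9’ than in ‘CH8/9’ (adjusted p = 0.288, limma) and 0.76 ± 0.29 lower in ‘CH7/8’ than in ‘CH8/9’ (adjusted p = 0.999).

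In the AGL17 subfamily, *OsMADS57*, which promotes tillering in rice by repressing the strigolactone receptor gene *D14*, was measured between the classes and came closest of all members to a call between parents. It was at 5.51 and 4.39 in ‘CH7/8’, 6.21 and 6.44 in ‘CH7/9’, 4.63 and 4.92 in ‘CH8/9’, 5.28 and 5.54 in ‘CH9’, 4.52 and 5.18 in ‘CH8’ and 6.35 and 6.11 in ‘CH7’. The ‘CH7/9’ and ‘CH7’ arrays lay above all others. ‘CH7/9’ did not separate from ‘CH7’, and ‘CH8/9’ did not separate from ‘CH8’. ‘CH8’ was 1.38 ± 0.35 log2 below ‘CH7’, a 2.60-fold difference with a 95% interval of −2.18 to −0.58 (unadjusted p = 0.00358, adjusted p = 0.0627, limma). Over the alternatives the adjusted p was 0.016 to 0.284, with a call in 6 of them. Among these was the fit of 1 probe set per gene, with an adjusted p of 0.0447 (limma). That fit called 1522 of 23837 rows for ‘CH8’ against ‘CH7’, and the main fit 2024 of 54922. ‘CH7/8’ was 1.28 ± 0.35 log2 below ‘CH7’ (adjusted p = 0.225, limma). This became 1.84 log2 below without ‘CH7/8’ replicate 1 and 0.72 log2 below without replicate 2, each time with 1 array of ‘CH7/8’ left. ‘CH7/9’ was 0.92 ± 0.35 log2 above ‘CH9’ (adjusted p = 0.379, limma).

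Among the other AGL17 genes, *OsMADS27* and *OsMADS25* are known for nitrate-responsive root growth in rice. *OsMADS27* was at 3.48 and 2.73 in ‘CH7/8’, 3.66 and 3.31 in ‘CH7/9’, 3.44 and 3.25 in ‘CH8/9’, 3.04 and 3.05 in ‘CH9’, 3.37 and 3.38 in ‘CH8’ and 3.83 and 3.12 in ‘CH7’. Its line means spanned 0.44 log2, the smallest span of the 8 genes between the classes, and all lines but ‘CH9’ overlapped with ‘CH7’. *OsMADS25* and *OsMADS23* were near background, at 1.76 to 3.25 and 1.37 to 1.76.

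*OsMADS26* of the AGL12 subfamily, a negative regulator of rice resistance to pathogens and drought, had its lowest values in ‘CH7’. It was at 5.31 and 5.13 in ‘CH7/8’, 5.06 and 5.82 in ‘CH7/9’, 5.78 and 5.55 in ‘CH8/9’, 5.83 and 5.89 in ‘CH9’, 5.27 and 4.85 in ‘CH8’ and 4.46 and 4.71 in ‘CH7’. The ‘CH9’ arrays were the highest of the 12 and the ‘CH7’ arrays the lowest. ‘CH9’ was 1.28 ± 0.25 log2 above ‘CH7’, or 2.42-fold (95% interval 0.70 to 1.85, unadjusted p = 0.000732, adjusted p = 0.0956, limma), and 0.80 ± 0.25 above ‘CH8’ (adjusted p = 0.319). Weighting the arrays by their quality gave an adjusted p of 0.0144 for ‘CH9’ against ‘CH7’ (limma), with 0.0144 to 0.439 over all alternatives. With this weighting, 762 of all 54922 probe sets were called for ‘CH9’ against ‘CH7’, against 206 without it. ‘CH7/9’ and ‘CH7/8’ lay 0.85 ± 0.25 and 0.63 ± 0.25 log2 above ‘CH7’ (adjusted p = 0.543 and 0.371, limma). The other AGL12 member, *OsMADS33*, had the lowest mean of all members, 1.43 log2, and ranged from 1.30 to 1.58.

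Of the B class genes, which specify lodicules and stamens, *OsMADS16* was measured between the classes and above the array median on all 12 arrays. It was at 5.10 and 3.84 in ‘CH7/8’, 4.44 and 4.86 in ‘CH7/9’, 4.38 and 4.80 in ‘CH8/9’, 4.82 and 4.43 in ‘CH9’, 4.11 and 4.92 in ‘CH8’ and 3.89 and 4.09 in ‘CH7’. Its highest and lowest arrays were the replicates of ‘CH7/8’, so ‘CH7/8’ overlapped with every other line. The span of its line means, 0.66 log2, was smaller than the gap between those replicates.

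The B class gene *OsMADS4* was near background, at 2.25 and 2.04 in ‘CH7/8’, 2.61 and 3.07 in ‘CH7/9’, 2.14 and 2.17 in ‘CH8/9’, 2.46 and 2.08 in ‘CH9’, 1.98 and 1.99 in ‘CH8’ and 1.95 and 1.86 in ‘CH7’. Both ‘CH7/9’ arrays lay above all other arrays. The first quartile of all probe sets was 2.51 on ‘CH7/9’ replicate 2 and 2.25 to 2.33 on the other arrays, and its part in the *OsMADS4* value was not tested. ‘CH7/9’ was 0.75 ± 0.17 log2 above its mid-parent (unadjusted p = 0.00141, adjusted p = 0.331, limma) and 0.94 ± 0.19 above ‘CH7’ (adjusted p = 0.304). The difference from the mid-parent was 0.52 to 0.99 when single arrays were left out, lowest without ‘CH7/9’ replicate 2, and 0.20 with a pseudocount of 16. Without ‘CH7/9’ replicate 1, which left 1 array of that line, the difference from ‘CH7’ became 1.17.

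The remaining organ identity genes were near background on every array. *OsMADS2*, the third B class gene, ranged from 2.17 to 2.57. The C class genes *OsMADS3* and *OsMADS58*, which act in stamens and floral meristem determinacy, ranged from 1.64 to 2.42 and from 1.16 to 1.72, and the ovule genes *OsMADS13* and *OsMADS21* from 2.21 to 2.72 and from 1.61 to 1.80. *OsMADS13* had the highest mean of the near-background genes, 2.58. In the Bsister subfamily, the seed gene *OsMADS29* ranged from 1.78 to 2.57 and *OsMADS30* from 1.91 to 2.75, each highest on ‘CH7/9’ replicate 2. Among these, *OsMADS3* varied most between parents. It was at 1.84 and 1.87 in ‘CH7/8’, 1.84 and 1.68 in ‘CH7/9’, 1.79 and 1.83 in ‘CH8/9’, 1.74 and 1.64 in ‘CH9’, 2.42 and 2.15 in ‘CH8’ and 1.93 and 1.77 in ‘CH7’. Both ‘CH8’ arrays lay above the other 10. ‘CH9’ was 0.60 ± 0.15 log2 below ‘CH8’ (adjusted p = 0.17, limma), and ‘CH8’ was 0.43 ± 0.15 above ‘CH7’ (adjusted p = 0.135).

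The SEP genes *OsMADS1*, *OsMADS5*, *OsMADS7*, *OsMADS8* and *OsMADS34* and the AGL6 genes *OsMADS6* and *OsMADS17* act in spikelet and floral meristems, and they stood out on a single array. All 7 had their highest value on ‘CH8/9’ replicate 2. *OsMADS1*, which specifies lemma and palea, was at 4.92 on that array and 2.07 on ‘CH8/9’ replicate 1, and the highest of the other arrays reached 3.50. *OsMADS34*, which acts in panicle branching, was at 4.70 and 2.56 on the same arrays, with at most 3.63 elsewhere. *OsMADS8* was at 3.24 and 1.61, with at most 2.02 elsewhere. *OsMADS17*, *OsMADS6* and *OsMADS5* showed gaps of 1.58, 1.29 and 1.01 log2 between these replicates, and *OsMADS7* had 2.17 and 1.71.

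In all, 8 members were at least 2-fold higher on ‘CH8/9’ replicate 2 than on replicate 1, and 0 were 2-fold lower. The 8 were *OsMADS1*, *OsMADS5*, *OsMADS6*, *OsMADS8*, *OsMADS14*, *OsMADS15*, *OsMADS17* and *OsMADS34*. Of all genes, 0.881% were at least 2-fold higher on replicate 2, and of all probe sets 2.16%. With 1 pair of replicates this is a description of 2 arrays and no test applies. Between the replicates of the other lines, 3 members were 2-fold or more apart in ‘CH7/8’, 0 in ‘CH7/9’, 0 in ‘CH9’, 3 in ‘CH8’ and 1 in ‘CH7’, against 2.39% to 6.17% of all probe sets in these lines. Over all arrays, 12 of the 31 members were highest on ‘CH8/9’ replicate 2, against 13.5% of all genes, and 7 were highest on ‘CH7/9’ replicate 2, against 22.5% of all genes.

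The ‘CH8/9’ means of these genes rested on that array. The ‘CH8/9’ mean of *OsMADS1* was 1.07 ± 0.62 log2 above its mid-parent (adjusted p = 0.722, limma), and without replicate 2 it was −0.36 relative to the mid-parent. That of *OsMADS34* was 0.77 ± 0.48 above (adjusted p = 0.739, limma), and −0.30 without replicate 2. Genes that mark flowers are given beside them. The summed linear intensity of the 9 flower, pollen and anther genes was 190 on ‘CH8/9’ replicate 2 and 147 on replicate 1, and 107 to 179 on the other arrays. Within the list, the anther receptor kinase gene *MSP1* was at 5.48 and 4.31 and *YAB1* at 5.03 and 4.10 on these arrays. *DL*, a carpel and midrib gene, was at 4.06 and 4.08 and *MTR1* at 6.33 and 6.26. *MTR1* was the brightest of the 9 on every array and so weighed most in the sum. It was matched by symbol or synonym, and whether the match is the anther gene of that name was not tested. The anther genes *RTS*, *OSC6*, *CYP703A3*, *TDR* and *UDT1* were near background on all 12 arrays, with *TDR* at 1.62 and 1.79 and *UDT1* at 1.39 and 1.68 on these arrays. The part of these genes in the SEP and AGL6 values was not tested.

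**Figure D4:**
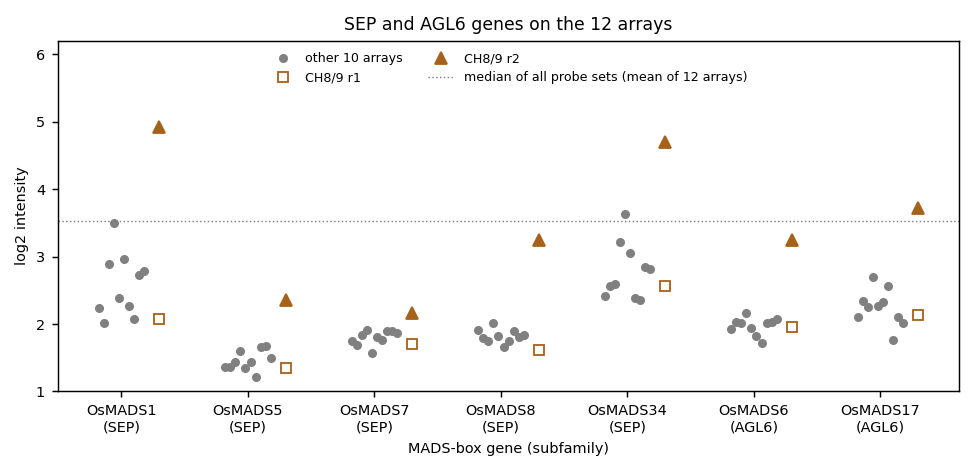
Log2 intensity (y axis) of the 5 SEP and 2 AGL6 genes (x axis) on the 12 arrays; grey points are the other 10 arrays, open squares ‘CH8/9’ replicate 1 and filled triangles ‘CH8/9’ replicate 2. Every filled triangle is the highest value of its gene, while the open squares lie among the grey points or, for *OsMADS8*, just below them.

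Hybrids as a group were then set against parents as a group, the comparison that follows the weakness of the F1 plants. Its SE, p-values and intervals, here and above, rest on the differences between arrays of the same line. They do not measure the spread among the hybrids or among the parents. With limma and Benjamini-Hochberg adjustment over all 54922 probe sets, 0 of the 31 members passed the threshold for a call, an adjusted p no higher than 0.05 with a difference of 2-fold or more, against 0.0091% of all probe sets. At an unadjusted p under 0.05 there were 3 members, *OsMADS20*, *OsMADS50* and *OsMADS4*, all higher in hybrids, against 4.87% of all probe sets in either direction and 3.2% higher in hybrids. Least squares without eBayes also called 0 members, but only 1 of all 54922 probe sets. *OsMADS20* was 0.61 ± 0.15 log2 above the parents (adjusted p = 0.807, limma) and *OsMADS4* 0.33 ± 0.11 above (adjusted p = 0.94). *OsMADS15* had the largest difference, −0.88 ± 0.54 (adjusted p = 0.94, limma). The mean was higher in hybrids for 20 members and lower for 11, with a median difference of 0.07 log2, against 0.03 over all probe sets. The 95% interval lay within 2-fold in either direction for 28 of 31 members, including all 16 near background and 6 of the 7 well expressed. The exceptions were *OsMADS14* (−1.18 to 0.14), *OsMADS15* (−2.11 to 0.34) and *OsMADS1* (−0.54 to 1.34). The share of all probe sets with an interval within 2-fold was not computed. For the dim near-background genes, an interval bounds the intensity and not the transcript level.

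**Figure D5:**
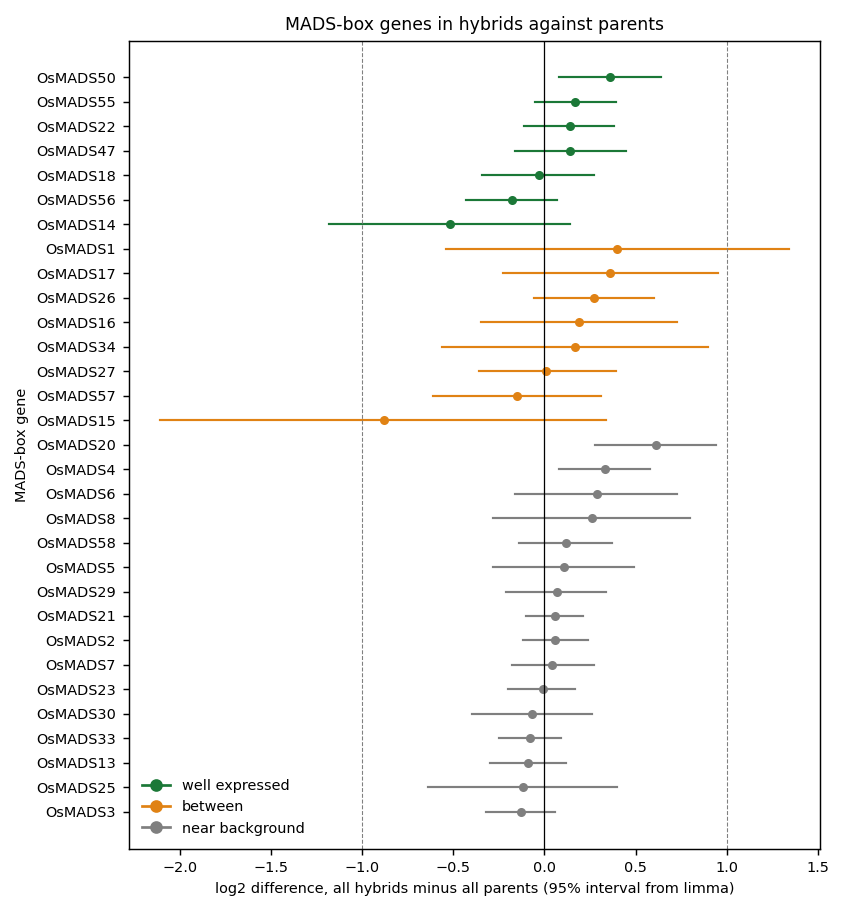
Difference in mean log2 intensity, all hybrids minus all parents (x axis), for the 31 MADS-box genes (y axis, grouped by class); points are limma estimates, lines their 95% intervals, and dashed lines mark 2-fold. Only the intervals of *OsMADS14*, *OsMADS15* and *OsMADS1* cross a dashed line.

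Among the parents, limma called 0 members in any of the 3 comparisons. Least squares without eBayes also called 0 members. Of all 54922 probe sets it called 475 for ‘CH8’ against ‘CH7’, 43 for ‘CH9’ against ‘CH7’ and 144 for ‘CH9’ against ‘CH8’. In ‘CH8’ against ‘CH7’, 3.69% of all probe sets were called, and 4 members had an unadjusted p under 0.05, against 20.6% of all probe sets. These were *OsMADS57*, *OsMADS14* and *OsMADS15*, lower in ‘CH8’, and *OsMADS3*, higher in ‘CH8’. In ‘CH9’ against ‘CH7’, 0.375% of all probe sets were called. There *OsMADS26* was higher in ‘CH9’ and *OsMADS57* and *OsMADS56* were lower at an unadjusted p under 0.05, against 12.6% of all probe sets. In ‘CH9’ against ‘CH8’, 0.586% were called. *OsMADS26*, *OsMADS14* and *OsMADS15* were higher in ‘CH9’ and *OsMADS3* and *OsMADS50* lower at an unadjusted p under 0.05, against 8.83% of all probe sets. The comparisons share the arrays of each parent, and 3.89% of all probe sets were called in at least 1 of the 3.

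Each hybrid was also compared with its mid-parent and with each parent. Limma called no member in any of these 9 comparisons. Of all probe sets, it called 0.0164% in at least 1 mid-parent comparison and 0.424% in at least 1 comparison with a parent. Least squares without eBayes called no member either. Of all 54922 probe sets it called 0, 0 and 2 against the mid-parent in ‘CH7/8’, ‘CH7/9’ and ‘CH8/9’. Against a parent it called 4 to 24. Against the mid-parent, 2 members had an unadjusted p under 0.05 in each hybrid. They were *OsMADS50*, higher, and *OsMADS14*, lower, in ‘CH7/8’ (0.00546% of all probe sets called, 4.13% under the unadjusted threshold). In ‘CH7/9’ they were *OsMADS4* and *OsMADS50*, both higher (0.00182% and 9.34%, with 6.98% higher). In ‘CH8/9’ they were *OsMADS20* and *OsMADS6*, both higher (0.0164% and 7.36%, with 4.65% higher), and *OsMADS6* was 0.72 ± 0.29 log2 above the mid-parent (adjusted p = 0.658, limma). The *OsMADS6* difference rested on ‘CH8/9’ replicate 2, at 3.24. Replicate 1 was at 1.95, and the parent means were 1.87 in ‘CH8’ and 1.88 in ‘CH9’. Against a parent, the counts under the unadjusted threshold were 5 for ‘CH7/8’ against ‘CH7’ (0.228% of all probe sets called), 1 against ‘CH8’ (0.106%), 2 for ‘CH7/9’ against ‘CH7’ (0.0473%), 3 against ‘CH9’ (0.0346%), 3 for ‘CH8/9’ against ‘CH8’ (0.151%) and 1 against ‘CH9’ (0.1%). The shares of all probe sets under the unadjusted threshold were 12%, 6.66%, 8.16%, 11.7%, 9.13% and 6.47%, in the same order.

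The hybrid means were placed against both parent means without a test. ‘CH7/8’ lay above both parents for 11 members, between them for 6 and below both for 14, against 26.3%, 47.5% and 26.1% of all probe sets. ‘CH7/9’ lay above both for 17, between for 10 and below for 4, against 44.2%, 35.2% and 20.7%. ‘CH8/9’ lay above both for 15, between for 11 and below for 5, against 34.6%, 31.7% and 33.7%. When the deviations from the mid-parent were compared between hybrids, limma called 0 members in any of the 3 pairs, against 0.0127%, 0.00182% and 0.00364% of all probe sets. At an unadjusted p under 0.05 there were 2 members for ‘CH7/8’ against ‘CH7/9’, 1 for ‘CH7/8’ against ‘CH8/9’ and 2 for ‘CH7/9’ against ‘CH8/9’. The shares of all probe sets were 7.66%, 4.14% and 12.8%, in the same order. Least squares without eBayes called 0 of all 54922 probe sets in each pair, so its result says nothing about the members.

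A moderated F test asked whether a gene differed among the 6 lines at all. It called 0 members, against 1.74% of all probe sets. Least squares with no moderation also called 0 members, with 142 of all 54922 probe sets called. Under an unadjusted p of 0.05 there were 7 members, against 16.5% of all probe sets. The lowest adjusted p-values were those of *OsMADS57* (0.103), *OsMADS20* (0.125), *OsMADS26* (0.141), *OsMADS4* (0.153) and *OsMADS14* (0.214, limma). Line means were at least 2-fold apart for 7 of the 31 members, against 22.0% of all genes. They were 1 of 7 well expressed genes (*OsMADS14*), 5 of 8 between the classes and 1 of 16 near background (*OsMADS20*). The 5 were *OsMADS1*, *OsMADS15*, *OsMADS26*, *OsMADS34* and *OsMADS57*, and 2 of them, *OsMADS1* and *OsMADS34*, had their highest mean in ‘CH8/9’ through its replicate 2.

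Of 32 listed names of genes that act with the family in flowering and panicle formation, 16 were measured. The rest did not match 1 gene, had no probe set of their own or repeated a listed gene. Limma called 0 of the 16 in any comparison. At an unadjusted p under 0.05 there were 2 for all hybrids against all parents, 4 for ‘CH8’ against ‘CH7’ and 5 among the 6 lines, against 4.87%, 20.6% and 16.5% of all probe sets. The other comparisons had 1 to 4. *GI*, which couples the clock to flowering, was at 9.77 to 10.29 and the clock gene *PRR37* at 6.97 to 8.65, both well expressed. *HD3A*, which encodes florigen and activates the AP1/FUL genes, was near background, at 1.39 and 1.41 in ‘CH7/8’, 1.77 and 2.22 in ‘CH7/9’, 1.35 and 1.31 in ‘CH8/9’, 1.55 and 1.67 in ‘CH9’, 1.27 and 1.33 in ‘CH8’ and 1.85 and 1.62 in ‘CH7’. The ‘CH8/9’ and ‘CH8’ arrays lay below all others, within the dim range. The panicle meristem genes *RFL*, *LAX1* and *FZP* were near background, at 1.82 to 2.28, 1.92 to 2.29 and 2.05 to 2.39.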

How the data were processed

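Total RNA of whole rice plants at tillering was measured on 12 arrays, 2 for each of 6 lines. The values deposited by the authors are linear intensity per probe set, in 1 table. The methods name RMA with quantile normalization and background subtraction, and the submitters' processing notes name MAS5. The version, and which algorithm made the values, are not given in the sources used here. Medians and quartiles of the arrays were close but not equal. Intensity was taken to log2 without a pseudocount and without further normalization.

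Gene names came from the platform's annotation with symbols updated through RefSeq genes of assembly ASM3414082v1, using probe sets with 1 listed gene only. For a gene with several probe sets, the one with the highest mean over the 12 arrays was used. The flowering and marker lists were matched by symbol or synonym, and the counts matched are given with the results.

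The 6 line means were estimated together from the 12 arrays in limma 3.58.1 (R 4.3.3) with eBayes, and p-values of all 54922 probe sets were adjusted by Benjamini-Hochberg. Calls needed an adjusted p no higher than 0.05 and a 2-fold difference. The procedure was tested on simulated data. SAM, named in the methods, was not run here because 2 against 2 arrays allow too few permutations. The number of arrays per line limits how precise each value is.

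The members, subfamilies and lists were chosen with earlier results of these data known. Values were given for all well expressed members, the members between the classes, the members with the largest difference in each comparison, and the highest and lowest near-background members. *OsMADS3*, *OsMADS4*, *OsMADS6*, *OsMADS20* and the ranges of other near-background genes were added after their values were seen. Alternatives were quantile normalization, median centring, pseudocounts of 1 and 16, leaving out dim probe sets, a mean-dependent spread, least squares without eBayes, array weights, the replicate number as a block, no fold threshold, 1 probe set per gene, probe sets averaged per gene, fits on the lines compared, other class limits, and leaving out each array.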

Additional observations from a re-analysis of the deposited data

How the results depend on the processing

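The counts of members called were 0 in most alternatives. Between parents the count became 1 when dim probe sets were left out (*OsMADS57*, ‘CH8’ against ‘CH7’, adjusted p = 0.0484, limma). In that comparison 2176 of all 31264 rows were called. It became 2 with array weights (*OsMADS57*, 0.0438, and *OsMADS26*, ‘CH9’ against ‘CH7’, 0.0144, limma), with 2325 and 762 of 54922 rows called. With 1 probe set per gene and with probe sets averaged per gene it was 1 (*OsMADS57*, 0.0447 and 0.0446, limma). There 1522 and 1523 of 23837 rows were called. The main fit called 2024 of 54922 rows for ‘CH8’ against ‘CH7’ and 206 for ‘CH9’ against ‘CH7’. Fewer rows were tested in all of these but the array weights, and the cause of the calls was not tested in any of them. Leaving out single arrays gave 0 to 1 called between parents, 0 to 1 between a hybrid and a parent, 0 to 1 among the 6 lines and 0 to 0 for all hybrids against all parents, against the mid-parent and between hybrids. In the fits concerned, *OsMADS57* was at −1.38 log2 in ‘CH8’ against ‘CH7’ with either ‘CH7/8’ array left out. It was at −1.84 in ‘CH7/8’ against ‘CH7’ without ‘CH7/8’ replicate 1. *OsMADS26* was at 1.28 in ‘CH9’ against ‘CH7’ with either ‘CH7/9’ array left out. *OsMADS4* was at 1.17 in ‘CH7/9’ against ‘CH7’ without ‘CH7/9’ replicate 1. *OsMADS1* was at 2.75 in ‘CH8/9’ against ‘CH8’ without ‘CH8/9’ replicate 1. Each of these fits left 1 array in a line, so its calls are not read as results. The number of all probe sets called changed as well, rising in some of these fits and falling in others. Without ‘CH8/9’ replicate 2 the deviation of *OsMADS1* from its mid-parent reversed to −0.36, within −0.36 to 2.50 over single arrays left out, and that of *OsMADS34* to −0.30, within −0.30 to 1.84. Well expressed members numbered 4 with limits at the 90th and 60th percentiles, 9 with the 60th and 40th, 9 by the mean over arrays, and 7 to 7 when single arrays were left out. Near-background members numbered 18, 12 and 20 under the same limits. They numbered 16 to 18 when single arrays were left out, with 18 without ‘CH8/9’ replicate 2, when *OsMADS1* and *OsMADS17* joined. The fit with the replicate number as a block called 0 members in every comparison. Of 15 pairs of lines, 2 had a correlation over 0.1 between the differences of their replicates (−0.333 to 0.204), so the numbers were not taken to pair samples. With 2 arrays per line and no detection call, differences among dim genes are the least certain.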

Other observations

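In the RefSeq gene order (assembly ASM3414082v1), *OsMADS14* and *OsMADS34* are neighbours with 0 annotated genes between them, as are *OsMADS13* and *OsMADS33*, and *DL* and *OsMADS1*. *OsMADS14* was well expressed, at 6.67 to 8.99 log2, and *OsMADS34* lay between the classes, at 2.35 to 4.70. *OsMADS34* and *OsMADS14* were both higher on ‘CH8/9’ replicate 2 than on replicate 1, by 2.14 and 1.26 log2. *DL* was at 4.06 and 4.08 on those arrays and *OsMADS1* at 4.92 and 2.07, and both lay between the classes. *OsMADS13* and *OsMADS33* were both near background.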
